A study of Mus musculus with 6 samples.

Results

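The 5 genes Serpina1a, Serpina1b, Serpina1c, Serpina1d and Serpina1e encode the mouse forms of alpha1-antitrypsin. They were found by matching the gene identifiers of the deposited table to GENCODE vM21, and all 5 were among its 46983 rows and passed the low-count filter that left 16441 genes. The family was chosen with the values of these genes in the libraries known, so the values and the differences between the groups are given as a description, with no test. The study compared livers of mice with a hepatocyte-specific knockout of AEG-1, the product of Mtdh, with livers of AEG-1fl/fl control mice, whose titles call them wild type. All mice had a C57BL/6 strain background, were 12 weeks old, ate chow and had no treatment, and the recombinase that made the deletion is not given in the sources used here. RNA from whole liver was sequenced from 3 mice per group, per the labels, but control replicates 1 and 2 held the same value in each of the 46983 rows. These identical columns are counted as 1 sample, called control replicate 1, which leaves 3 knockout and 2 control libraries.

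Alpha1-antitrypsin is a serpin, a serine protease inhibitor that hepatocytes make in large amounts and secrete into the blood. It presents an exposed reactive centre loop as bait, and a protease that cuts the loop is trapped in a stable complex. In humans it is best known as the inhibitor of neutrophil elastase, and its deficiency leads to emphysema and, for variants that are retained in the endoplasmic reticulum, to liver disease. In mice the gene has been duplicated, and the copies differ in the loop that selects the protease.

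The paralogues lie on the minus strand of chromosome 12 on GRCm38, and their likeness decides how far reads can tell them apart. From low to high coordinate, the rows of the table place Serpina1b (ENSMUSG00000071178) at 103728156 to 103830373 and Serpina1d (ENSMUSG00000071177) at 103763594 to 103773592. Serpina1a (ENSMUSG00000066366) follows at 103853589 to 103863562, Serpina1c (ENSMUSG00000079015) at 103894926 to 103904887 and Serpina1e (ENSMUSG00000072849) at 103946931 to 103958975. The span annotated for Serpina1b thus contains that of Serpina1d. The coding sequences of the 5 genes, each of 1242 bases in GENCODE vM21, aligned without gaps, and 86 of these positions (6.92%) differed among them. Serpina1a and Serpina1c were the closest pair, with 19 differences (98.47% identity), and Serpina1e differed from Serpina1b and from Serpina1d by 46 bases each. Serpina1e also had the most bases found in no other member, 24, against 6 in Serpina1a. The longest stretch identical in all 5 was 226 bases.

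The stretch that codes for the reactive centre loop held differences at a higher density than the rest and is shown because it distinguishes the copies. It covers 30 codons from the conserved hinge of the loop onwards, within 1 exon in each gene. In capitals are the positions at which the 5 genes are not all alike, 19 of the 90 bases (21.1%), against 5.82% of the coding bases outside the stretch.
Serpina1a: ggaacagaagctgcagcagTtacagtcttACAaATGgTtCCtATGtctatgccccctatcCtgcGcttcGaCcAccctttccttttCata
Serpina1b: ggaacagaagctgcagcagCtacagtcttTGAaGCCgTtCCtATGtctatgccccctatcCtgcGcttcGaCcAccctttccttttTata
Serpina1c: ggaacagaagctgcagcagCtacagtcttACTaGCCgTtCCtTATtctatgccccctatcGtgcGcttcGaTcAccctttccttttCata
Serpina1d: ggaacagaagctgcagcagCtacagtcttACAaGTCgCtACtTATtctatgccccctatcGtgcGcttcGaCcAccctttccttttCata
Serpina1e: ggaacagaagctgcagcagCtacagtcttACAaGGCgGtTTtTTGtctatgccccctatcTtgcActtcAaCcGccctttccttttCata
These stretches are at chr12:103853741-103853830 for Serpina1a, chr12:103728308-103728397 for Serpina1b, chr12:103895078-103895167 for Serpina1c, chr12:103763746-103763835 for Serpina1d, chr12:103947084-103947173 for Serpina1e, on the minus strand of GRCm38. Of the 30 codons, 12 differed among the genes and 11 of them changed the encoded residue. Serpina1e differed from each other member in this stretch by 10 to 12 bases and by 8 or 9 encoded residues, and the other members differed among themselves by 5 to 10 bases and 4 to 7 residues.

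Promoter identity was below coding identity in every pair except Serpina1b and Serpina1e. A part upstream of the RefSeq starts is shown because it could be aligned in all 5 without gaps. It ended at position -63 from the RefSeq start in Serpina1e and at -12 to -1 in the other genes. For Serpina1b and Serpina1e it lies inside the gene span given above, whose start is at a higher coordinate than the RefSeq start. In capitals are again the positions at which the 5 genes differ, 10 of 115 bases, in sequence from RefSeq on GRCm38.p6.
Serpina1a: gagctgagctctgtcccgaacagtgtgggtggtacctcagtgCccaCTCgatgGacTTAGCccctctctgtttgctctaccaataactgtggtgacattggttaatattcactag
Serpina1b: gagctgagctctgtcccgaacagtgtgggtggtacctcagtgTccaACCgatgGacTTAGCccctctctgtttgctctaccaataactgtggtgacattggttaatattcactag
Serpina1c: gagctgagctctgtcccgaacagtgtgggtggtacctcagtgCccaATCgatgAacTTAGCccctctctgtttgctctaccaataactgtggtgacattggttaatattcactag
Serpina1d: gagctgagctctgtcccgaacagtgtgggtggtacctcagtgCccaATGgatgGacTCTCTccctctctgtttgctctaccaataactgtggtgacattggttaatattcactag
Serpina1e: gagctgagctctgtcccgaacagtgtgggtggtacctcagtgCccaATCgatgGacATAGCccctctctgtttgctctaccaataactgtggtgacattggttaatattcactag
These stretches are at chr12:103863626-103863740 for Serpina1a, chr12:103738201-103738315 for Serpina1b, chr12:103904963-103905077 for Serpina1c, chr12:103773635-103773749 for Serpina1d, chr12:103956961-103957075 for Serpina1e, on the minus strand. Serpina1e differed by 2 bases from Serpina1a and from Serpina1c, by 3 from Serpina1b and by 6 from Serpina1d. Over the aligned part of the full 300-base windows, identity ran from 91.7% between Serpina1c and Serpina1d, with 24 differences in 289 bases, to 98.39% between Serpina1b and Serpina1e, with 4 differences in 248 bases. A pair of motifs was searched on both strands of these windows. The motif TTNNGNAA, bound by C/EBP factors, was found once in 4 of the windows and not in that of Serpina1c, against 40.7% of 32544 windows of the same length. The motif TTCNNNGAA, bound by STAT factors, was found in none of the 5, against 8.3% of all windows. No matches overlapped one another, and a match or its absence describes the letters of these windows only.

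How much of each transcript is specific to its gene differed widely. Of the 50-base windows in the transcripts of Serpina1b, 70.5% were found in no other gene of GENCODE vM21, and for Serpina1e this share was 65.4%. It was 49.1% for Serpina1d, 42.4% for Serpina1a and 20.7% for Serpina1c. With windows of 100 bases the shares were 85.2%, 85.6%, 70.7%, 57.2% and 30.7% in the same order of genes. Other carriers of the shared windows were the annotated pseudogene Gm8893 and the antisense gene B430119L08Rik. The sources used here do not give the read length, the strand setting or the treatment of reads with several matches, so the counts of the 5 genes are uncertain to an extent that was not tested. Serpina1c is the member with the least specific sequence.

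**Figure D1:**
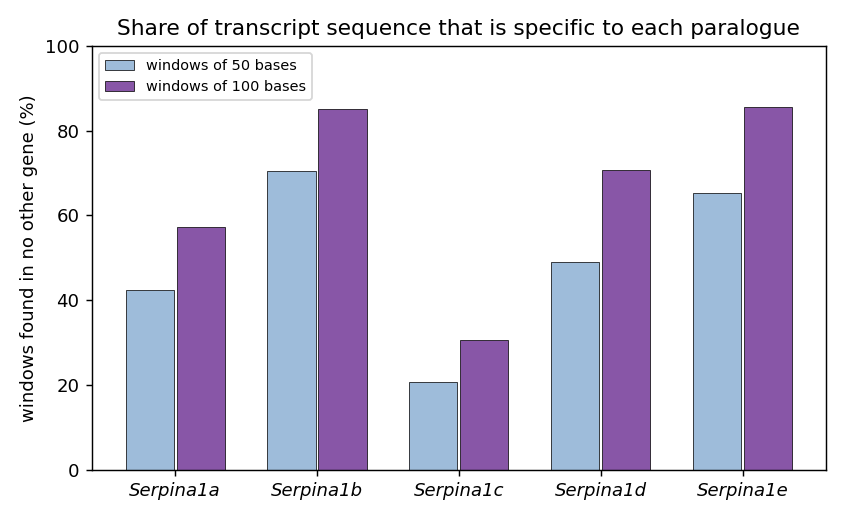
Share of transcript windows, in percent, that are found in no other gene of GENCODE vM21, for each paralogue and for windows of 50 and 100 bases. Serpina1b and Serpina1e have the largest specific share at both lengths and Serpina1c the smallest, 20.7% and 30.7%.

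Library totals ran from 29557477 to 33685670 counts in the knockout group and were 30819997 and 30965664 in the control group. Mtdh had 89, 74 and 76 counts in the knockout libraries against 1529 and 1612 in the control libraries, so each library went with its label. The log2 fold change of Mtdh was -4.36 (SE 0.15), with an edgeR adjusted p of 0.000564. CPM values below are read counts relative to the library size, scaled with TMM (trimmed mean of M values) factors. The hepatocyte markers, Alb, Apoa1, Ttr and 5 others, summed to 82113, 82119 and 93811 CPM in the livers of knockout mice, against 102780 and 73120 CPM in control replicates 1 and 3. Markers of other liver cells were low beside these, with 157 to 196 CPM in knockout and 170 and 219 CPM in control libraries for 7 macrophage markers. The 10 neutrophil markers summed to 1.56, 1.90 and 1.03 CPM in knockout livers, against 3.14 and 1.49 CPM in control livers, with Ctsg and Prss57 at 0 counts in all of them. In bulk liver, fewer hepatocytes and less RNA per hepatocyte cannot be told apart.

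Together the family held more than 2% of the gene counts in every library. The 5 genes held 605653, 793425 and 829328 counts in the knockout libraries and 1057466 and 723497 in the control libraries. That was 2.05%, 2.45% and 2.46% of all counts in the knockout libraries, against 3.43% and 2.34% in the control libraries. Control replicate 1 was above all the others, and control replicate 3 lay within the range of the knockout libraries. On the scaled level, the family sum was 23177 ± 3163 CPM in knockout livers (SD, n = 3) and 28837 ± 6143 CPM in control livers (SD, n = 2). The difference of the mean log2 CPM was -0.31, beside SDs of 0.20 in the knockout and 0.31 in the control group. Without control replicate 1 it was -0.09, and without control replicate 3 it was -0.52, so the size of the difference rested on which control library was used. Without knockout replicate 1 it was -0.20.

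Serpina1b, the member at the highest level, had 13812, 15892 and 17190 CPM in the knockout livers, against 20264 and 16624 CPM in the control livers. The groups overlapped, with knockout replicate 3 above control replicate 3. Its log2 fold change was -0.24 (SE 0.21), and leaving out single libraries moved it between -0.09 (control replicate 1) and -0.37 (control replicate 3). Serpina1d had 2280, 2798 and 2921 CPM in the knockout livers and 3695 and 2698 CPM in the control livers. Its log2 fold change was -0.26 (SE 0.21), and 2 of the knockout libraries were above control replicate 3. The value was -0.022 when control replicate 1 was left out, -0.16 when knockout replicate 1 was, and -0.47 when control replicate 3 was. Serpina1a had 2402, 3110 and 3264 CPM in the knockout livers and 3627 and 3008 CPM in the control livers, with a log2 fold change of -0.18 (SE 0.20). Leaving out control replicate 1 gave -0.045, leaving out knockout replicate 1 gave -0.058, and leaving out control replicate 3 gave -0.31. Serpina1c, at the lowest level of these 4, had 851, 1227 and 1226 CPM in the knockout livers and 1250 and 1147 CPM in the control livers. Its log2 fold change was -0.12 (SE 0.20), and leaving out single libraries moved it between 0.03 (knockout replicate 1) and -0.21 (knockout replicate 2 or 3).

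Serpina1e varied far more than the other 4 paralogues. It had 362, 897 and 1298 CPM in the knockout livers, against 4345 and 1017 CPM in the control livers. The counts behind these levels were 11139, 29763 and 41549 in the knockout and 138484 and 30029 in the control libraries. Control replicate 1 was 12.0 times the lowest library, knockout replicate 1, while control replicate 3 lay between knockout replicates 2 and 3. The log2 fold change was -1.65 (SE 0.68), and it was -0.26 without control replicate 1 and -2.35 without control replicate 3. The knockout libraries alone spanned a 3.58-fold range of Serpina1e, and the 2 control libraries differed 4.27-fold.

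**Figure D2:**
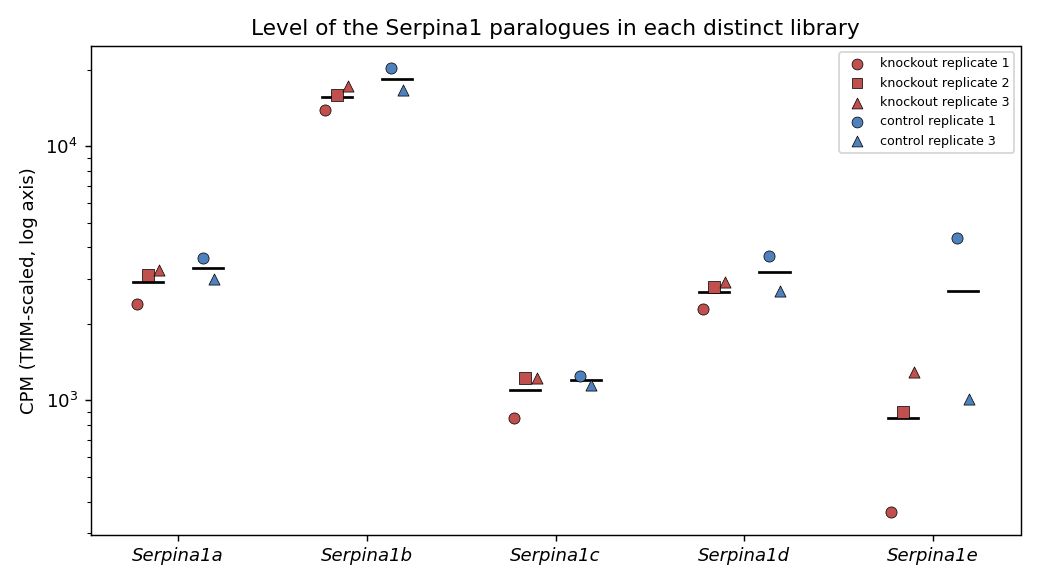
Level of each paralogue in the 3 knockout and 2 distinct control libraries, as TMM-scaled CPM on a log axis; points are libraries, shapes are replicate numbers and lines are group means. Control replicate 1 is the highest and knockout replicate 1 the lowest library for all 5 genes, and for Serpina1e these are 4345 and 362 CPM.

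The order of the libraries was shared by the family at its ends. Control replicate 1 was the highest and knockout replicate 1 the lowest library for 5 of the 5 members. How common this order was over all tested genes was not counted. The members may also share reads, as the treatment of reads with several matches is not known. Control replicate 1 also had the highest hepatocyte marker sum, 102780 CPM, of which Alb alone gave 80459 CPM. Among the other markers, Apoa1 was highest there too (5368 CPM), while Ttr was highest in knockout replicate 2 (5624 CPM). The part of hepatocyte content in the family's level was not tested. The groups overlapped in every member, so 0 of the 5 were lower and 0 higher in all knockout libraries than in all control libraries. Over all 16441 tested genes, 8.72% were lower and 8.16% higher without overlap. The median log2 fold change of the 5 members was -0.24, beside 0.01 for all tested genes. Without control replicate 1 the members ran from -0.26 (Serpina1e) to -0.022 (Serpina1d), so the size of this median rested on that library.

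Between genes, levels were compared per kilobase of the exon length in the table, which counts the exons of all annotated isoforms. Serpina1b stood first, with 6473 ± 706 CPM per kilobase in knockout and 7637 ± 1066 in control livers (SD, n = 3 and n = 2). It ranked 10 of 16441 genes by the mean over the 5 libraries on this scale. Serpina1d followed with 1913 ± 244 in knockout and 2293 ± 506 in control livers, and Serpina1a with 1597 ± 251 and 1811 ± 239 CPM per kilobase in knockout and control livers. These 2 neighbours differed by less than the sum of their SDs in both groups, although Serpina1d was above Serpina1a in each of the 5 libraries. Serpina1c had 809 ± 159 in knockout and 881 ± 53.3 CPM per kilobase in control livers. Serpina1e had 527 ± 290 CPM per kilobase in knockout and 1658 ± 1456 in control livers, and its place was not fixed. It was the lowest of the 5 in each knockout library and in control replicate 3, and at 2687 CPM per kilobase it was second only to Serpina1b in control replicate 1.

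Scaling to the specific part of each transcript altered this order. Counts were also set per kilobase of specific sequence, that is, of windows of 50 bases found in no other gene. The full counts were divided, which is apt only if reads with several matches were left out, and that setting is not known. On this scale Serpina1c was at 4049 ± 798 CPM in knockout livers and at 4406 ± 267 CPM in control livers (SD, n = 3 and n = 2). Serpina1d was at 4040 ± 516 and Serpina1a at 3741 ± 588 CPM in knockout livers, against 4843 ± 1068 and 4242 ± 560 CPM in control livers, so these 3 were within each other's spread. Serpina1b was again first, with 9697 ± 1057 CPM in knockout livers and 11441 ± 1597 CPM in control livers, and Serpina1e was last, with 832 ± 458 in knockout and 2616 ± 2296 CPM in control livers. With windows of 100 bases, the means of Serpina1c, Serpina1a and Serpina1d were 2846, 2851 and 2914 CPM in knockout livers. In control livers they were 3097, 3233 and 3493 CPM. Serpina1e was then at 3342.5 CPM in control replicate 1, above Serpina1c at 3229 CPM. The pseudogene Gm8893, which lies at 103817856 to 103822243 inside the span annotated for Serpina1b, was named after its counts were seen. It had 1828, 1746 and 2549 CPM in the knockout and 2099 and 2326 CPM in the control libraries, and it was not highest in control replicate 1. B430119L08Rik, which runs antisense to Serpina1c, had 2.18 to 14.3 CPM in knockout and 3.98 and 6.16 CPM in control libraries.

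The make-up of the family sum shows the same split between Serpina1e and the rest. Serpina1b made up 70.1%, 66.4% and 66.4% of the family counts in the knockout libraries and 61.1% and 67.9% in the control libraries. Serpina1e made up 1.84%, 3.75% and 5.01% in the knockout libraries, against 13.1% and 4.15% in the control libraries. Serpina1a had 12.2% to 13.0% in knockout and 10.9% and 12.3% in control libraries, and Serpina1d had 11.3% to 11.7% in knockout and 11.1% and 11.0% in control libraries. Serpina1c had 4.32% to 5.13% in knockout and 3.77% and 4.68% in control libraries. The 95% Wilson intervals of these shares reached at most 0.115 percentage points to either side, which covers counting error only. The mean share of Serpina1e was 3.53% ± 1.60 in knockout and 8.62% ± 6.33 in control livers (SD, n = 3 and n = 2). The difference of -5.09 percentage points became -0.62 without control replicate 1 and -9.56 without control replicate 3.

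**Figure D3:**
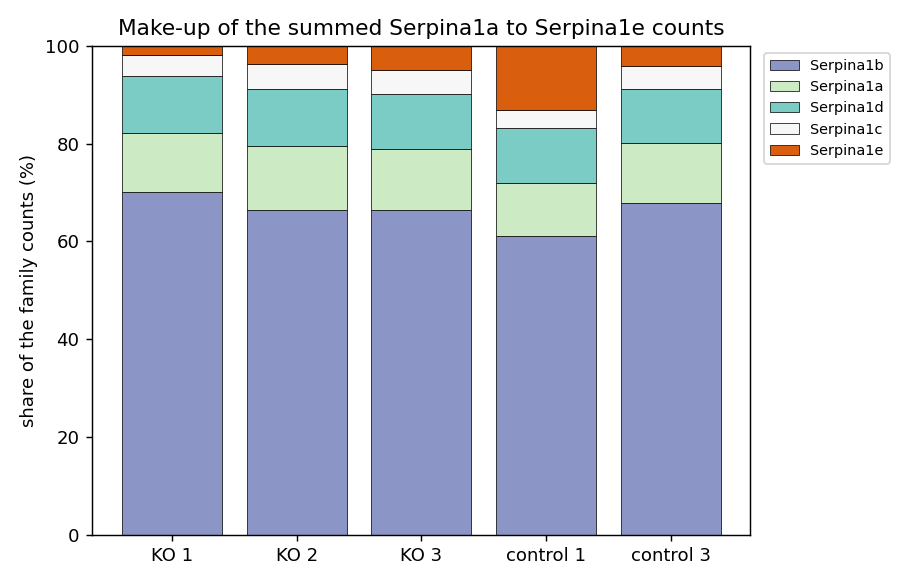
Share of each paralogue in the summed Serpina1a to Serpina1e counts, in percent, for 3 knockout (KO) and 2 distinct control libraries. Serpina1e takes 13.1% in control replicate 1 and 1.84% to 5.01% in the other libraries, while Serpina1b takes 61.1% to 70.1%.

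Ratios within a library, which need no scaling between libraries, separated Serpina1e from the other copies. The count of Serpina1d relative to Serpina1b was 0.165, 0.176 and 0.170 in the knockout and 0.182 and 0.162 in the control libraries. That of Serpina1a ranged from 0.174 to 0.196 in knockout libraries and was 0.179 and 0.181 in control libraries. The count of Serpina1c relative to Serpina1b was 0.0616, 0.0772 and 0.0713 in the knockout and 0.0617 and 0.0690 in the control libraries. These 3 ratios varied at most 1.25-fold over the 5 libraries. The ratio of Serpina1e to Serpina1b was 0.0262, 0.0565 and 0.0755 in the knockout and 0.214 and 0.0612 in the control libraries, an 8.17-fold range. It differed 2.88-fold among the knockout libraries alone, so control replicate 1 was not the only library to depart from a constant ratio.

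Against other genes of the liver, the spread of Serpina1e was also wide. The SD of its log2 level over the 5 libraries was 1.29, rank 32 of 8152 genes that averaged 10 CPM or more, and 0.380% of these genes varied more. The SDs of the other members were 0.22 for Serpina1a, 0.20 for Serpina1b, 0.23 for Serpina1c and 0.25 for Serpina1d, with 17.8% to 28.5% of genes more variable. Within the knockout group the SD of Serpina1e was 0.95, rank 75 of the 8152 genes. Between the control libraries it differed by 2.10 on the log2 scale, rank 49.

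**Figure D4:**
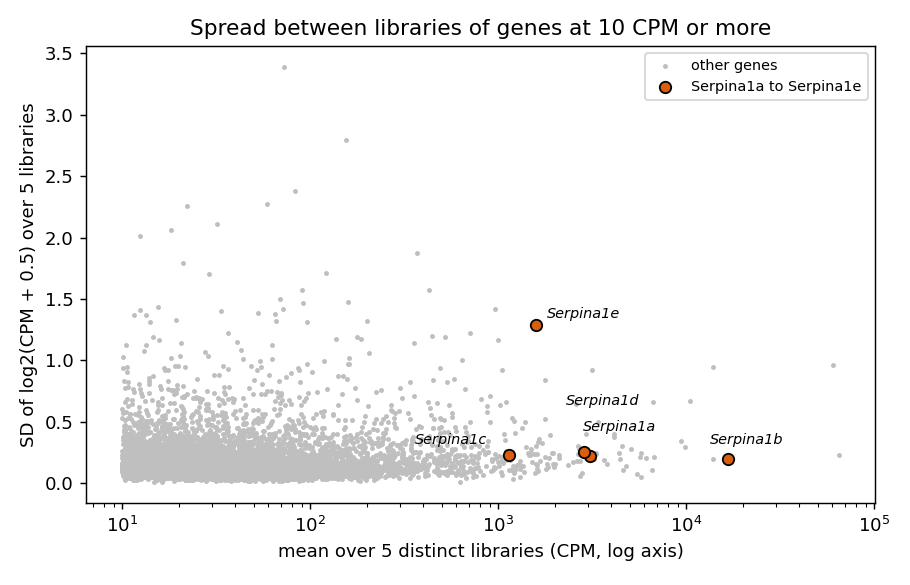
SD of log2(CPM + 0.5) over the 5 distinct libraries against the mean level in CPM on a log axis, for genes at 10 CPM or more. Serpina1e, at an SD of 1.29, lies above most genes of its level, and the other 4 paralogues lie between 0.20 and 0.25.

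The genes whose course over the 5 libraries was nearest to the family sum were found by the root mean square difference of centred log2 levels. Gm2a, an activator of lysosomal ganglioside breakdown, was nearest with 0.03, where the family's own root mean square departure from its mean was 0.24. It had 59.8, 72.6 and 76.8 CPM in the knockout and 102 and 77.3 CPM in the control libraries. Spout1, a putative RNA methyltransferase, followed with 0.03, the iron carrier transferrin (Trf) with 0.05, the plasma protein fetuin-A (Ahsg) with 0.06 and the purine synthesis enzyme Pfas with 0.07. No gene came that near to Serpina1e, whose own departure was 1.15. Its nearest gene was the immediate early factor Egr1, with a difference of 0.51 and 4.69, 4.52 and 14.2 CPM in the knockout and 31.4 and 12.5 CPM in the control libraries. Next were Gm15564 (0.54), the mitochondrial leucyl-tRNA synthetase Lars2 (0.56), the secreted peptide gene Enho (0.57) and the lectin-like gene Clec2h (0.59). Lars2 had 171, 337 and 235 CPM in the knockout and 1296 and 182 CPM in the control libraries, and Gm15564 had 65.5, 133 and 99.6 CPM in the knockout and 630 and 73.0 CPM in the control libraries. These nearest genes were picked from 8152 for their likeness over 5 libraries, which is a description of these libraries.

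Other serpins of the same clade, which lie in the same cluster on chromosome 12 apart from the X-linked Serpina7, lay on both sides of 0. The list held 20 genes outside the family, 18 of which were tested, and 11 had log2 fold changes above 0 and 7 below. None was called by edgeR's quasi-likelihood test at an adjusted p under 0.05, none had an unadjusted p under 0.05, and DESeq2 and limma-voom called none. Over all tested genes edgeR called 0.00608%, which was Mtdh alone, 3.43% had an unadjusted p under 0.05, and 47.9% had a log2 fold change below 0. The list's median log2 fold change was 0.13, beside 0.01 over all tested genes, and leaving out control replicate 1 made it -0.19, knockout replicate 3 made it -0.13 and control replicate 3 made it 0.66. The neighbours of the family were Serpina10, the inhibitor of coagulation factor Xa that needs protein Z, with -0.12 (SE 0.16), and Serpina6, the corticosteroid-binding globulin, with 0.32 (SE 0.41). On the other side were Serpina11 with 0.28 (SE 0.25), Serpina9 with -0.19 (SE 0.56) and Serpina12, the adipokine vaspin, with 0.64 (SE 0.82). Serpina12 had 58.6, 189 and 90.3 CPM in the knockout and 17.3 and 127 CPM in the control libraries, with its lowest level in control replicate 1, where Serpina1e was highest.

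Among the Serpina3 genes, the mouse relatives of human alpha1-antichymotrypsin, 3 had a much wider spread between libraries than the rest. Serpina3c had 180, 5.85 and 306 CPM in the knockout and 8.16 and 279 CPM in the control libraries. Serpina3a had 31.7, 5.34 and 52.8 CPM in the knockout and 4.33 and 50.8 CPM in the control libraries, and Serpina3h had 21.1, 1.54 and 35.1 CPM in the knockout and 1.82 and 31.3 CPM in the control libraries. All 3 were low in knockout replicate 2 and control replicate 1. Control replicate 1 was also at an end for Serpina1e, but as its highest library, and the lowest for Serpina1e was knockout replicate 1. Their log2 fold changes were 0.19 (SE 1.59), 0.12 (SE 1.10) and 0.22 (SE 1.29). Serpina3k, at the highest CPM of the Serpina3 genes, had 6777, 10653 and 11454 CPM in the knockout and 10086 and 10372 CPM in the control libraries. Serpina3n, an acute phase protein, had -0.04 (SE 0.19), Serpina3m 0.13 (SE 0.34), Serpina3f -0.08 (SE 0.26) and Serpina3g 0.10 (SE 0.37). Serpina3b had 0.86 (SE 0.37) at a level of 0.800 ± 0.241 CPM in knockout livers, against 0.441 ± 0.0467 CPM in control livers. It was the 1 of 18 genes that was higher in every knockout than in every control library, where 8.16% of all tested genes were. Serpina3i had -0.13 (SE 0.24), Serpina3j -0.10 (SE 0.34), Serpina5, the protein C inhibitor, 0.25 (SE 0.68) and the thyroxine-binding globulin Serpina7 0.85 (SE 0.76). Serpina1f, with 2 to 6 counts in knockout and 6 and 7 in control libraries, and Serpina16, with at most 2 counts, were not tested. The Serpina3 genes are also a family of related copies, and how far reads tell them apart was not tested.

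**Figure D5:**
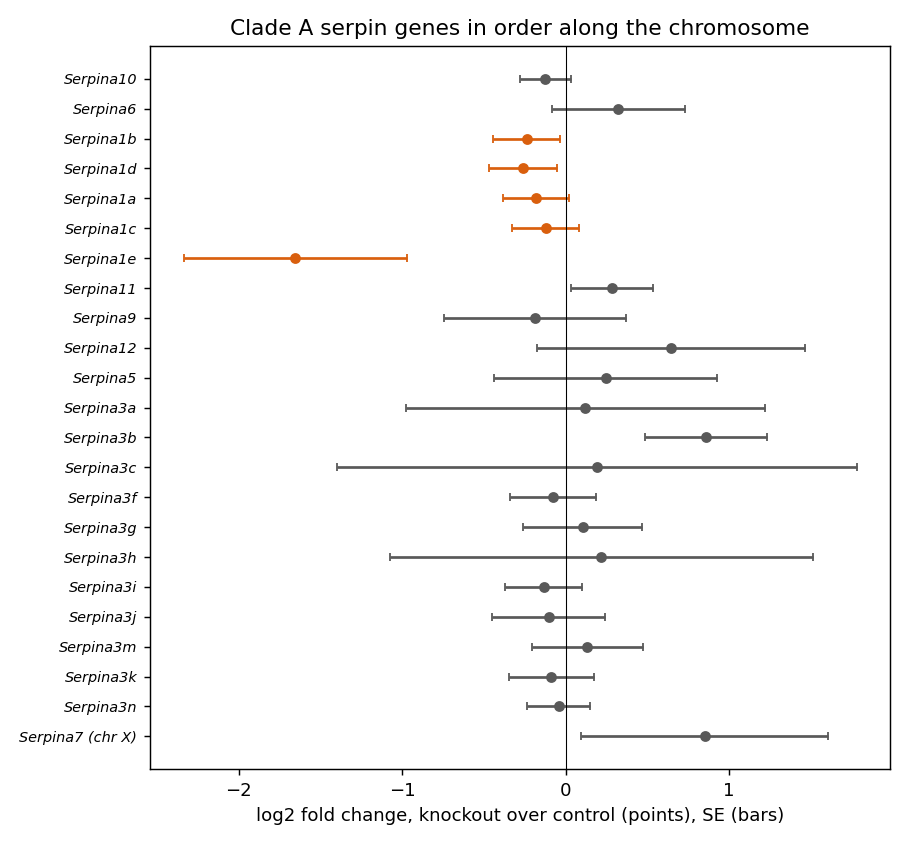
Log2 fold change of knockout over control (points) with its SE (bars) for the 5 Serpina1 paralogues in orange and the 18 other tested clade A serpin genes in grey, in order along chromosome 12 with the X-linked Serpina7 last. Serpina1e has the lowest value, -1.65, and the other 4 paralogues lie between -0.26 and -0.12.

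Of 8 tested serpins of other clades that the liver makes, 7 had log2 fold changes below 0, beside 47.9% of all tested genes. The median was -0.24, and leaving out control replicate 1 made it -0.04, and leaving out knockout replicate 3 made it -0.14. None was called by edgeR, DESeq2 or limma-voom, and 0 had an unadjusted p under 0.05. Serpind1 and Serpinh1, 2 of the 8, were lower in all knockout than in all control libraries, beside 8.72% of all tested genes. Heparin cofactor II (Serpind1) had 546 ± 10.6 CPM in knockout livers, against 632 ± 56.9 CPM in control livers, and its log2 fold change was -0.21 (SE 0.13). Serpinf2, the inhibitor of plasmin, had -0.29 (SE 0.25), and Serpinh1, a collagen chaperone, -0.27 (SE 0.22).

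None of 8 transcription factors known to drive the antitrypsin gene or the liver programme it belongs to passed the test. The log2 fold change was above 0 for 3 and below 0 for 5, with a median of -0.11. Leaving out knockout replicate 1 made the median 0.064 and leaving out knockout replicate 3 made it -0.28, while it was 0.036 without control replicate 1 and -0.05 without control replicate 3. None was called by edgeR, DESeq2 or limma-voom or had an unadjusted p under 0.05. Hnf4a, a nuclear receptor that maintains hepatocyte identity, had 528, 536 and 729 CPM in the knockout and 550 and 598 CPM in the control livers. Its log2 fold change was 0.06 (SE 0.19), and that of Onecut1 was -0.07 (SE 0.47). Cebpa had 323, 310 and 358 CPM in the knockout and 434 and 312 CPM in the control livers, with -0.17 (SE 0.18), and Cebpb, the C/EBP of the acute phase, had -0.16 (SE 0.33). The forkhead factors had 0.26 (SE 0.28) for Foxa1, 0.18 (SE 0.29) for Foxa2 and -0.32 (SE 0.26) for Foxa3. Stat3, which carries the interleukin-6 signal, had 95.3, 120.4 and 89.8 CPM in the knockout and 120.5 and 149 CPM in the control livers. Its log2 fold change was -0.40 (SE 0.17), and knockout replicate 2 was barely below control replicate 1. Of the 8 factors, 1 was lower without overlap, beside 8.72% of all tested genes.

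Antitrypsin folds in the endoplasmic reticulum, and misfolded chains are removed by its quality control. Of 16 folding, export and disposal factors, 4 had log2 fold changes above 0 and 12 below, with a median of -0.07 and no call by edgeR, DESeq2 or limma-voom, nor any unadjusted p under 0.05. Leaving out knockout replicate 3 made this median 0.0044, knockout replicate 2 made it -0.14 and control replicate 1 made it -0.037. The 3 with the smallest p were Edem1, a lectin that sends glycoproteins to disposal, with -0.16 (SE 0.13), Syvn1, the ubiquitin ligase of that route, with -0.17 (SE 0.14), and the chaperone Hsp90b1 with -0.20 (SE 0.17). The target proteases of neutrophils were at the limit of detection. Of 10 neutrophil genes 2 were tested and 0 called by edgeR, DESeq2 or limma-voom, with a median of -0.36. Leaving out control replicate 1 made it 0.73, control replicate 3 made it -1.01, knockout replicate 2 made it -0.94 and knockout replicate 3 made it -0.071. Proteinase 3 (Prtn3) had 0.287 ± 0.253 CPM in knockout livers, against 0.269 ± 0.285 CPM in control livers. S100a9, a calcium-binding protein of neutrophils, had 0.666 ± 0.148 and 1.17 ± 0.260 CPM in knockout and control livers. By edgeR it was the 1 of the 2 tested genes at an unadjusted p under 0.05, beside 3.43% of all tested genes.

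Antitrypsin is an acute phase protein in humans. Of the 22 acute phase genes, 19 had log2 fold changes below 0, beside 47.9% of all tested genes, and the list's median was -0.19. The summed level of the list was 22511, 31494 and 23637 CPM in the knockout and 33048 and 26487 CPM in the control libraries, so knockout replicate 2 was above the other knockout libraries. The median was -0.49 when this library was left out and -0.096 when knockout replicate 1 was. None was called by edgeR, DESeq2 or limma-voom. By edgeR, 1 of the 22, the metalloreductase Steap4, had an unadjusted p under 0.05, beside 3.43% of all tested genes. Steap4 had 122 ± 5.21 CPM in knockout livers, against 172 ± 17.6 CPM in control livers. Itih3 had -0.38 (SE 0.20) and the serum amyloid gene Saa1 -0.78 (SE 0.53). Of 11 male-biased genes that respond to growth hormone, 5 had log2 fold changes above 0 and 6 below, with a median of -0.11 and 0 calls by edgeR, DESeq2 or limma-voom and none at an unadjusted p under 0.05. Leaving out control replicate 3 or knockout replicate 1 made that median 0.27 or 0.12, and leaving out knockout replicate 3 or control replicate 1 made it -0.39 or -0.19. Cyp4a12a had 354 ± 96.2 CPM in knockout livers, against 210 ± 87.0 CPM in control livers, and a log2 fold change of 0.75 (SE 0.32). Cyp7b1 had -0.41 (SE 0.38) and the complement gene C6 -0.25 (SE 0.22). Of 16 abundant secreted proteins of hepatocytes, 6 had log2 fold changes above 0 and 10 below. Their median was -0.02, and it was 0.14 without control replicate 1 and -0.13 without control replicate 3. Again 0 were called by edgeR, DESeq2 or limma-voom or had an unadjusted p under 0.05. The fibrinogen chain Fgb had -0.39 (SE 0.26), fetuin-A (Ahsg) -0.28 (SE 0.21) and the apolipoprotein gene Apoa2 0.23 (SE 0.16).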

How the data were processed

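Per the labels' protocols, liver total RNA went through a TruSeq library kit and onto a HiSeq2500 sequencer. The authors deposited raw read counts for each gene, with exon coordinates and summed exon length. The tools and builds in the submitters' processing notes are FastQC, Trimmomatic 0.33, Subread 1.4.6-p4, featureCounts 1.4.6-p4, mm10 and GRCm38. GENCODE vM21 gave symbols for 46488 of the 46983 identifiers. A count of 3 equals at most 0.101 CPM in any library, and such floors and intervals cover counting error only.

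Genes were kept by edgeR's filterByExpr, scaled by TMM and compared with the quasi-likelihood F test, two-sided, 3 knockout against 2 distinct control libraries, with Benjamini-Hochberg adjustment over 16441 genes and 0.05 as threshold. SEs were derived from each gene's F statistic. The members and lists were chosen with earlier results of these data known. The labels call the libraries biological replicates. Sequences were aligned with MAFFT 7.526. The coding sequences come from GENCODE vM21 transcripts, and protein sequences are not used here. Named genes were Mtdh, the members, all tested clade A serpins and listed transcription factors (some items of that list are not reported here), the 3 genes with the smallest p of each other list, and the 5 nearest patterns of the family and of the most variable member. Alternatives were other scalings, no filter, DESeq2, limma-voom, a replicate block, all 6 columns and each library left out. Software was DESeq2 1.42.0, limma 3.58.1, edgeR 4.0.16, R 4.3.3 and Python 3.11.15.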

Additional observations from a re-analysis of the deposited data

How the results depend on the processing

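The family sum kept its sign under all alternatives tried, from -0.52 to -0.09 on the log2 scale, the lowest and highest being without control replicates 3 and 1. It was -0.23 without Serpina1e and -0.30 with Gm8893, 2 alternatives chosen after seeing the data. Leaving out each library in turn gave -2.35 to -0.26 for Serpina1e, and differences in the share of the family sum of -9.56 to -0.62 percentage points for Serpina1e, -0.24 to 6.56 for Serpina1b and 0.32 to 1.67 for Serpina1a. The share difference of Serpina1c was 0.50 percentage points on counts and 1.77 per specific window. That of Serpina1d was 0.44 on counts and 0.85 per kilobase. Genes called over all genes numbered 1 in the comparison as reported, 3 without a low-count filter, 18 by DESeq2 (7 higher, 11 lower), 1 by limma-voom and 1 to 6 when each library was left out. Where 1 control library was left, it was assumed to vary like the knockout libraries. With the replicate number as a block, 0 genes were called and Mtdh had an adjusted p of 0.0517 by edgeR's quasi-likelihood test. The labels do not say that equal numbers pair the mice, and only numbers 1 and 3 had distinct libraries in both groups. Their correlations of deviations were 0.03 and 0.14, beside 0.12 for knockout replicate 2 with control replicate 1. With 2 control libraries the deviations of 1 mirror those of the other, so these values cannot decide whether the mice were paired. The block also turned the sign of Serpina7 (-0.26), Serpina5 (-0.34), Serpina3j (0.10), Foxa1 (-0.023), Foxa2 (-0.14) and Prtn3 (-0.79). It gave a median of -0.47 for the acute phase genes. On all 6 columns the sign turned for Serpina3j (0.069), Serpina3f (0.00038), Serpina3n (0.014) and Prtn3 (-0.23). The cause of these changes was not tested, and none of these genes was called. Signs of uncalled genes also turned when 1 library was left out. The log2 fold change then ranged from -0.089 to 0.90 for Serpina6, -0.18 to 2.71 for Serpina12, -0.26 to 0.034 for Serpina3i, -0.31 to 0.77 for Serpina3m, -0.30 to 1.06 for Serpina5, -0.23 to 0.11 for Serpina3k, -1.01 to 0.14 for Serpina9 and -0.53 to 0.49 for Serpina3j. It ranged from -0.34 to 0.17 for Serpina3f, -0.38 to 0.82 for Serpina3g, -0.20 to 0.13 for Serpina3n, -0.71 to 3.40 for Serpina3h, -0.77 to 4.33 for Serpina3c, -0.77 to 2.79 for Serpina3a, -0.55 to 0.039 for Serpinf2 and -0.69 to 2.03 for Prtn3. Among the transcription factors it ranged from -0.39 to 0.079 for Cebpa, -0.0033 to 0.48 for Foxa1, -0.10 to 0.42 for Foxa2, -0.54 to 0.35 for Cebpb, -0.11 to 0.14 for Hnf4a and -0.38 to 0.31 for Onecut1. With 2 distinct control libraries, 1 of which stands apart for Serpina1e, the data cannot place the control level of this gene.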
